A study of Mus musculus with 2 samples.

Results

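Chemokine genes were described across the cells of the intestinal lamina propria of ApcMin and VApcMinL mice. The genes were taken by symbol: every Ccl and Cxcl gene with a number in its name, Cx3cl1 and Xcl1. This gave 44 of the 31053 gene features in the count tables, with 39 distinct symbols. Of the 44, 35 had at least 1 unique molecular identifier (UMI, the tag that counts an RNA molecule) in a cell, and 9 had none. At least 200 UMIs were found for 29 features, which are described with their values, and 6 had fewer but at least 1.

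Chemokines are small secreted proteins that guide migrating cells through G protein-coupled receptors. They are grouped by the spacing of their conserved cysteines into CC (Ccl), CXC (Cxcl), XC and CX3C families. Some are made at a steady level and position lymphocytes and other cells in tissues, such as Cxcl12, Cxcl13, Ccl19, Ccl21a and Ccl25. Others rise upon inflammatory signals and draw neutrophils (Cxcl1, Cxcl2, Cxcl3 and Cxcl5), monocytes and eosinophils (Ccl2, Ccl7, Ccl8 and Ccl11) or activated T cells (Cxcl9 and Cxcl10). Atypical receptors bind chemokines without G protein signaling and remove them from the tissue.

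The ApcMin mice carried ApcMin/+ with both Lef1 alleles intact, and the VApcMinL mice carried ApcMin/+ with loxP-flanked Lef1 alleles and Villin-Cre. The ApcMin allele, a truncating Apc mutation that causes intestinal adenomas, was thus shared by both groups. Villin drives Cre in the intestinal epithelium, so the cells described here, other than epithelial cells, are not the ones in which the deletion is directed. All mice were C57BL/6, 11 weeks old by the labels, although the text of the study also gives a younger age for these samples. The tissue was treated with EDTA and then digested with Liberase TL, and live cells without Ter119, EpCAM and CD45 (markers of erythroid cells, epithelial cells and leukocytes) were sorted. Each genotype had 1 single-cell RNA library, and how many mice were behind it was not given in the sources used here. No replicate spread could be had from 1 library each, so nothing was tested, and effects of the genotype, of single mice and of the preparation cannot be told apart. All intervals below are exact 95% intervals that cover counting error only.

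Barcodes with at least 3000 UMIs and at most 20% mitochondrial UMIs were kept as cells, 6599 in ApcMin with a median of 10849 UMIs and 6569 in VApcMinL with a median of 9111. They held 83.6% and 74.4% of the 93203061 and 101609269 UMIs of the libraries, and 18 barcodes occurred in both. Lef1, the deleted gene, had 22 UMIs in 48 epithelial-like ApcMin cells (7.57 CPM, UMIs per 1e6 UMIs of the same cells, interval 4.75 to 11.5) and 29 UMIs in 346 VApcMinL ones (1.94 CPM, 1.30 to 2.79). Over all cells it stood at 1.57 and 1.52 CPM. Despite the sort, erythroid-like, B-like, plasma-like, myeloid- or mast-like, T cell- or ILC-like (innate lymphoid cell) and epithelial-like cells were present, with 1365 and 366 erythroid-like cells. Blood endothelial-like cells numbered 124 and 485.

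RNA released from broken cells gives UMIs in droplets whose cell does not express the gene. Its share was estimated per class and library from hemoglobin, immunoglobulin and epithelial genes that the class should lack, taking the highest of the 3. A chemokine was called above free RNA where the lower limit of its CPM in a class exceeded what this share of the empty-droplet profile would give. The estimate reached 85.1% and 128% in blood endothelial-like cells, where hemoglobin genes set it, against 2.37% and 3.39% from epithelial genes alone, so counts by the epithelial estimate are given beside the main ones.

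The promoters of Cxcl1, Cxcl2, Cxcl3 and Cxcl10 are shown, each with a match to the κB motif in its upstream sequence. Ccl1, with 34 UMIs, also held a match and is not shown. Each sequence holds the 210 bases from 250 to 41 bases before the RefSeq start, on GRCm38.p6, 5′ to 3′ on the strand of the gene. Capitals mark matches to the κB motif, written as GGGA, any 2 bases and TTCC, on either strand. In Cxcl10 capitals also mark a match to the interferon-stimulated response element, GAAA, any 2 bases and GAAA, further from the start.
Cxcl1, chr5:90890995-90891204, plus strand: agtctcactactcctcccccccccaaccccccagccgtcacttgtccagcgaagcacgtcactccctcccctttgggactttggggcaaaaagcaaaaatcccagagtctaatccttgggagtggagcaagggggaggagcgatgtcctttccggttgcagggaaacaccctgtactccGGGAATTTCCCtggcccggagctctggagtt
Cxcl2, chr5:90903649-90903858, plus strand: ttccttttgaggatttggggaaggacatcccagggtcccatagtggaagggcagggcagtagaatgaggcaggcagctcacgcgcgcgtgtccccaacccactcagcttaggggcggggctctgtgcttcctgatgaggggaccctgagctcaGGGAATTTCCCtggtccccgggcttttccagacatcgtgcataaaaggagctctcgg
Cxcl3, chr5:90785851-90786060, plus strand: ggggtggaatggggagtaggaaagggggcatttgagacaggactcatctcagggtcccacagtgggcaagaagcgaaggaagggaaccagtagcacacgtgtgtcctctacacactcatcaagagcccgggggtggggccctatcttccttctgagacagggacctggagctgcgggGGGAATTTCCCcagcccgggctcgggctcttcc
Cxcl10, chr5:92348930-92349139, minus strand: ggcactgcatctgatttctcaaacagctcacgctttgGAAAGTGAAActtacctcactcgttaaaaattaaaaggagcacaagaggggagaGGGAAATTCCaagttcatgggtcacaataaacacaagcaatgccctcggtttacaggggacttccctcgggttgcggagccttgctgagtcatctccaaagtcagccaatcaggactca

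In Cxcl1, Cxcl2 and Cxcl3 the κB letters matched on both strands, from 71, 97 and 73 bases before the start, and in Cxcl10 the κB match began 159 and the interferon element 213 bases before it. Of the 39 chemokine symbols, 27 had a promoter in the RefSeq table. The κB letters were found in 5 of them (Ccl1, Cxcl1, Cxcl2, Cxcl3 and Cxcl10) and in 397 of all 32851 promoters, or 1.21%. The interferon element was found for Ccl19, Cxcl10 and Cxcl14 and in 2.98% of all promoters. The AP-1 letters TGANTCA were found for Ccl9, Ccl27a, Ccl27b and Cxcl10 and in 6.75% of all promoters. All 3 motifs were searched on both strands of 250 bases, and a match describes letters, not binding. Cxcl5, Cxcl3, Cxcl15, Cxcl1 and Cxcl2 lie on chromosome 5, between 90759360 and 90905938 of GRCm38, and Cxcl9 and Cxcl10 lie between 92321347 and 92348889. Ccl2, Ccl7, Ccl11, Ccl12 and Ccl8 lie on chromosome 11, between 82035571 and 82116799.

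Chemokine RNA was mostly that of fibroblast-like cells. The cells held 525427 chemokine UMIs, 0.297% of all UMIs in ApcMin and 0.389% in VApcMinL. The 3352 and 3674 fibroblast-like cells, defined by Pdgfra, Dcn and collagen genes, held 81.9% of the chemokine UMIs in ApcMin and 77.2% in VApcMinL, against 59.7% and 54.7% of all UMIs. Myeloid- or mast-like cells came next in ApcMin, with 10.4% of chemokine UMIs from 5.33% of all UMIs, and held 4.50% from 3.30% in VApcMinL. Summed over all chemokines, lymphatic endothelial-like cells had the highest level per class, at 10155 and 9564 CPM, most of it Ccl21a. Fibroblast-like cells had 4075 and 5487 CPM and myeloid- or mast-like cells 5809 and 5304 CPM. At the low end, plasma-like cells had 94.1 and 220 CPM and erythroid-like cells 23.7 and 54.2 CPM.

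Most chemokines had the same main source in both libraries. For 26 of the 29 genes with at least 200 UMIs, the same class held most of the UMIs in ApcMin and VApcMinL: fibroblast-like cells for 13, myeloid- or mast-like cells for 7, epithelial-like cells for 3, T cell- or ILC-like cells for 2 and lymphatic endothelial-like cells for 1. The class with the highest CPM was the same for 21 of the 29. Shares of UMIs depend on how many cells of a class were caught, and CPM does not. Above free RNA in both libraries stood 16 of the 29 genes in myeloid- or mast-like cells, 14 in fibroblast-like cells, 8 each in T cell- or ILC-like and epithelial-like cells, 6 in mural-like cells, 4 in glial-like cells, and 3 each in blood and lymphatic endothelial-like cells. By the epithelial estimate of free RNA these counts were 23, 18, 15, 15, 7, 10, 15 and 7. For epithelial-like cells, which express epithelial genes, the estimate from immunoglobulin genes was used in its place. Plasma-like cells had 2 by either estimate, and erythroid-like cells had 0.

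**Figure D1:**
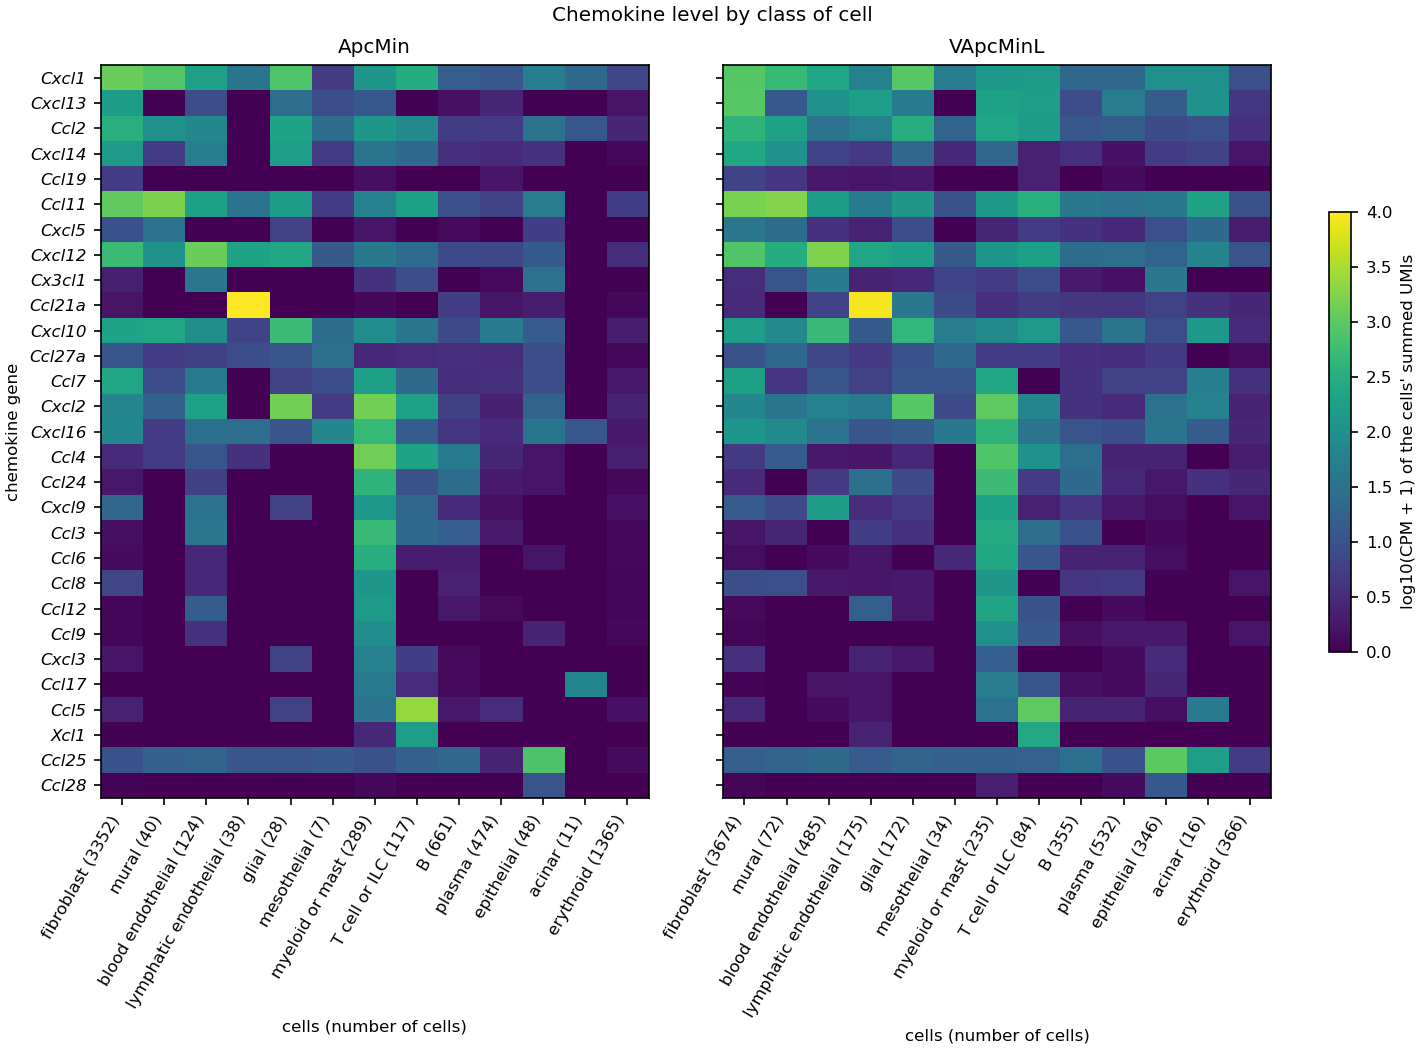
Level of the 29 chemokine genes with at least 200 UMIs, as log10(CPM + 1) of summed UMIs (color), in each class of cells (columns, number of cells in parentheses) of the ApcMin and VApcMinL libraries. The brightest field in both panels is Ccl21a in lymphatic endothelial-like cells, at 9821 and 8837 CPM.

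The number of chemokine genes detected per cell was compared after thinning every cell to 3000 UMIs. Fibroblast-like cells had a median of 3 chemokine genes in either library, and 3.82% of them in ApcMin and 2.42% in VApcMinL had no chemokine UMI. Myeloid- or mast-like cells had a median of 4, with up to 11 genes in a cell in both libraries. Lymphatic and blood endothelial-like cells had a median of 2. The chemokine UMIs of a thinned fibroblast-like cell had a median of 8 in ApcMin and 12 in VApcMinL.

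The neutrophil-attracting CXC genes were centered on fibroblast-like cells for Cxcl1 and Cxcl5 and on myeloid- and glial-like cells for Cxcl2. Cxcl1, which binds Cxcr2 on neutrophils, stood at 1211 CPM (1201 to 1221) in fibroblast-like ApcMin cells and 880 CPM (871 to 889) in VApcMinL ones. UMIs of Cxcl1 were found in 56.7% and 41.0% of these cells, whose median depths were 13319 and 10650 UMIs, against 8.44% and 6.02% of plasma-like cells, which should lack it, at median depths of 7265 and 4842.5. With each cell thinned to 3000 UMIs the fibroblast-like shares with Cxcl1 were 45.3% and 33.6%. Glial-like cells had 780 and 909 CPM and mural-like cells 841 and 500 CPM, so Cxcl1 was not particular to fibroblasts. Among the fibroblast-like clusters it was highest in cluster 1, led by Has1 and Inmt with markers of adventitial fibroblasts, at 2157 and 2070 CPM, and lowest in cluster 20, led by Bmp5 and Bmp7, at 24.1 and 16.2 CPM.

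Cxcl2, a close relative of Cxcl1, was high in other cells. In glial-like cells it stood at 1428 CPM (1265 to 1605) in 28 ApcMin cells and 907 CPM (851 to 964) in 172 VApcMinL cells. Of the glial-like cells 25.0% and 6.98% were among the highest doublet scores, and the leukocyte gene Ptprc stood at 91.8 and 8.13 CPM and Lyz2 of myeloid cells at 0 and 193 CPM, against 775 and 624 CPM and 4012 and 2960 CPM in myeloid- or mast-like cells. Their part in the glial-like Cxcl2 was not tested. In myeloid- or mast-like cells it stood at 1391 CPM (1355 to 1427) and 1017 CPM (977 to 1057). Fibroblast-like cells had 65.8 and 73.4 CPM, and plasma-like cells 1.22 and 2.07 CPM. The glial- and myeloid- or mast-like levels of Cxcl2 were thus above those of fibroblast-like cells in both libraries, with no overlap of the counting intervals. Cxcl2 UMIs were uneven among cells: 1 myeloid- or mast-like ApcMin cell held 1084 of 5774.

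Cxcl5 was low and clustered. It stood at 9.23 CPM in fibroblast-like ApcMin cells and 37.8 CPM in VApcMinL ones. Within these cells Cxcl5 was highest in cluster 11, led by Mmp10, Fgfr2 and Adamdec1, at 57.6 CPM (44.5 to 73.5) and 199 CPM (183 to 216), followed in VApcMinL by cluster 3 (Ereg, Adamdec1) at 76.7 CPM. Cxcl3, the other gene of this group, had 437 UMIs, and its 228 UMIs in myeloid- or mast-like ApcMin cells all lay in 8 cells.

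Of the monocyte- and eosinophil-attracting CC genes, Ccl11, Ccl2 and Ccl7 were high in fibroblast-like cells and Ccl8 and Ccl12 in myeloid- or mast-like cells. Ccl11, or eotaxin, which draws eosinophils, had the most UMIs of the set, 120087. It stood at 1065 CPM (1055 to 1074) and 1578 CPM (1566 to 1590) in fibroblast-like cells, with UMIs in 83.1% and 88.6% of them against 4.22% and 8.83% of plasma-like cells. Mural-like cells, the smooth muscle and pericyte class of 40 and 72 cells, had 1617 CPM (1463 to 1783) and 1822 CPM (1716 to 1933). Mural-like cells therefore stood above fibroblast-like cells in both libraries, beyond counting error. Among fibroblast-like clusters, Ccl11 was highest in cluster 11 at 2486 and 4415 CPM and in cluster 0, led by Plau, Penk and Lpl, at 2342 and 3054 CPM. The lowest Ccl11 levels were in cluster 18, led by Wif1, at 174 CPM in ApcMin, and in cluster 13, led by Scg2, at 212 CPM in VApcMinL.

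Ccl2 and Ccl7, which bind Ccr2 on monocytes, were high in the same clusters but not low in the same ones. Ccl2 stood at 337 CPM (332 to 342) and 404 CPM (398 to 410) in fibroblast-like cells, and Ccl7 at 222 CPM (218 to 226) and 185 CPM (180 to 189). Both were highest in clusters 0 and 1: Ccl2 at 566 and 677 CPM in cluster 0 and 493 and 629 CPM in cluster 1. Ccl7 stood at 343 and 370 CPM in cluster 0 and at 387 and 393 CPM in cluster 1. In cluster 11, where Ccl11 was highest, Ccl7 was near 0, at 2.66 and 4.73 CPM, and Ccl2 stood at 65.6 and 49.6 CPM. In cluster 3 Ccl2 stood at 101 and 240.5 CPM and Ccl7 at 20.4 and 12.7 CPM. Neighbouring genes of chromosome 11 thus did not share 1 pattern over the clusters. Glial-like cells also held Ccl2, at 199 and 308 CPM, and myeloid- or mast-like cells held Ccl7, at 177 and 251 CPM.

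Of the genes that position cells at a steady level, Cxcl12, Cxcl13, Cxcl14 and Ccl19 had most of their UMIs in fibroblast-like cells. Cxcl12 was also high in blood endothelial-like cells. Cxcl12, the ligand of Cxcr4, stood at 533 CPM (527 to 540) and 820 CPM (811 to 828) in fibroblast-like cells whereas blood endothelial-like cells had 1222 CPM (1156 to 1291) and 1694 CPM (1650 to 1739). Its UMIs were found in 85.5% and 90.2% of fibroblast-like cells and 2.11% and 6.77% of plasma-like cells. The 124 and 485 blood endothelial-like cells had the highest Cxcl12 level of any class in both libraries, whereas fibroblast-like cells, being more numerous, held 92.1% and 82.0% of its UMIs. Among fibroblast-like clusters Cxcl12 was highest in cluster 11 in ApcMin (1324 CPM) and cluster 3 in VApcMinL (1545 CPM), and lowest in cluster 10, led by Pi16, an adventitial marker, at 72.7 and 137 CPM.

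Cxcl13, the ligand of Cxcr5 that draws B cells into follicles, was held by few of the fibroblast-like clusters. Over all fibroblast-like cells it stood at 154 CPM (150 to 158) in ApcMin and 898 CPM (889 to 907) in VApcMinL. Cluster 2, led by Grem1 and Ackr4 with markers of trophocytes (fibroblasts near the crypt base), stood at 617 and 1693 CPM, cluster 3 at 266 and 2528 CPM and cluster 11 at 412 and 414 CPM. In clusters 0, 10 and 13 Cxcl13 stayed between 1.78 and 44.9 CPM in both libraries. UMIs of Cxcl13 were found in 21.3% and 38.8% of fibroblast-like cells and in 1.27% and 2.82% of plasma-like cells, and after thinning in 13.7% and 31.0% of fibroblast-like cells.

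Cxcl14, a chemokine of epithelium and stroma, stood at 138 and 243 CPM in fibroblast-like cells. Glial-like cells had 173 CPM in 28 ApcMin cells and 19.9 CPM in VApcMinL, and mural-like cells had 112 CPM in VApcMinL. Among fibroblast-like clusters Cxcl14 was highest in cluster 11 at 1014 and 900 CPM. It stood at 370 and 675 CPM in cluster 0 and at 0.886 and 17.4 CPM in cluster 10. Ccl19, which with Ccl21a binds Ccr7, was low, at 3.87 and 5.51 CPM in fibroblast-like cells, and was highest in cluster 18, led by Wif1 and Itgbl1, at 22.6 CPM (10.8 to 41.6) and 22.4 CPM (16.0 to 30.3). Cxcl14 and Ccl19 thus marked different clusters. Ccl27a, a ligand of Ccr10, had 10.5 and 8.92 CPM in fibroblast-like cells, and it shares sequence with Ccl27b and the unplaced Ccl27 features, which had 0 UMIs, so its reads cannot be assigned to 1 copy with certainty.

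**Figure D2:**
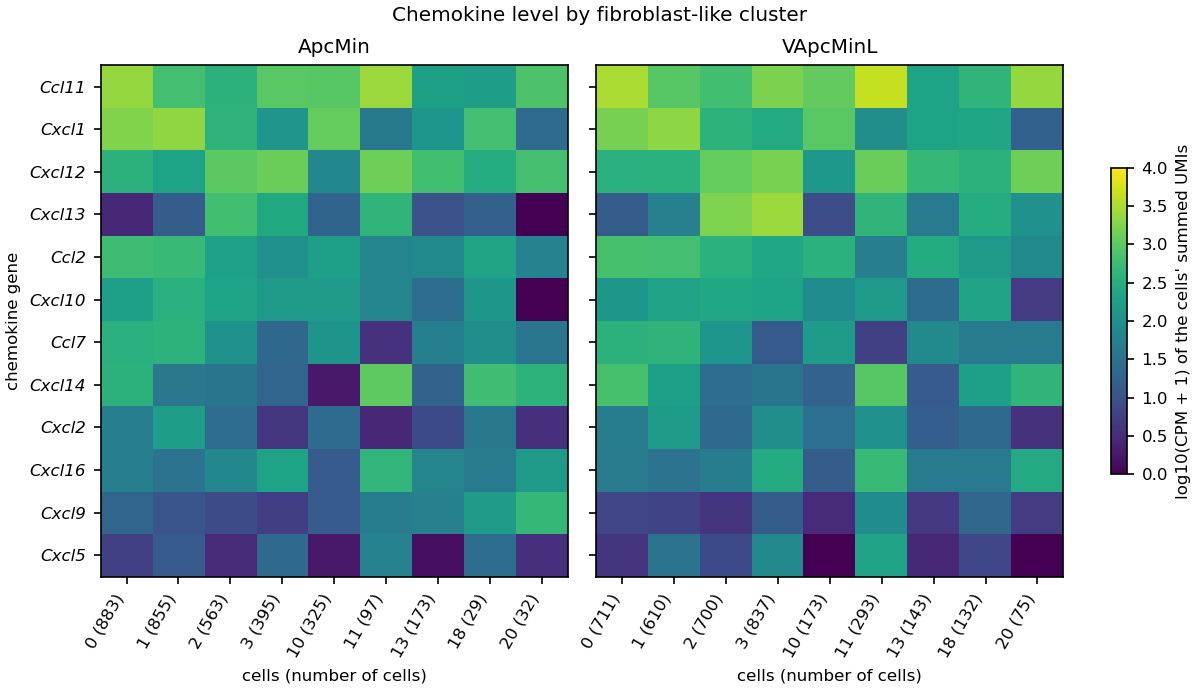
Level of those of the 29 chemokines that reached a set minimum CPM in a fibroblast-like cluster of either library. It is given as log10(CPM + 1) (color) in the fibroblast-like clusters (columns, number of cells in brackets) of each library. Genes low in every cluster, such as Ccl19 and Ccl27a, are not shown. Cxcl13 is bright in clusters 2, 3 and 11, Cxcl1 in clusters 0, 1 and 10, and Ccl11 in clusters 0 and 11.

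The interferon-responsive genes Cxcl9 and Cxcl10, ligands of Cxcr3, differed in the class with the highest CPM. Fibroblast-like cells held the largest share of UMIs of both, 59.7% and 33.0% for Cxcl9 and 90.1% and 71.6% for Cxcl10. Cxcl10 stood at 210 and 176 CPM in fibroblast-like cells, at 540 CPM (442 to 654) and 446 CPM (407 to 487) in glial-like cells, with blood endothelial-like cells at 95.1 CPM (77.3 to 116) and 507 CPM (483 to 532). Cxcl10 UMIs were also found in 6.75% and 6.58% of plasma-like cells, at 45.8 and 34.0 CPM, above free RNA by either estimate. Cxcl9 was highest in myeloid- or mast-like cells, at 134 CPM (123 to 146) and 211 CPM (194 to 230), and stood at 20.0 and 12.96 CPM in fibroblast-like cells. Within fibroblast-like cells Cxcl9 reached 457 CPM in the 32 ApcMin cells of cluster 20, against 4.04 CPM in the 75 VApcMinL cells of that cluster, and all 190 UMIs behind the former lay in 1 cell. Cxcl16, a membrane-bound chemokine that binds Cxcr6, was high in myeloid- or mast-like cells (480 and 415 CPM) and in fibroblast-like clusters 11 (427 and 498 CPM) and 3 (210 and 293 CPM).

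Lymphatic endothelial-like cells were set apart by Ccl21a, which draws Ccr7-bearing dendritic cells and T cells into lymphatic vessels. It stood at 9821 CPM (9505 to 10145) in 38 ApcMin cells and 8837 CPM (8680 to 8995) in 175 VApcMinL cells. UMIs of Ccl21a were found in 97.4% and 96.0% of these cells and in 0.633% and 1.69% of plasma-like cells. These cells held 98.5% and 97.9% of Ccl21a UMIs, and fibroblast-like cells had 0.602 and 2.13 CPM. The nearly identical copies Ccl21b and Ccl21c had 0 and 1 UMI, so counts could not be divided among the copies. Cx3cl1, fractalkine, a membrane-bound chemokine and the ligand of Cx3cr1, was highest in blood endothelial-like cells, at 36.5 CPM (25.8 to 50.1) in ApcMin and 45.5 CPM (38.5 to 53.4) in VApcMinL. Epithelial-like cells followed at 29.6 and 37.6 CPM and held the largest share of Cx3cl1 UMIs, 42.2% and 66.7%.

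Epithelial-like cells, 48 in ApcMin and 346 in VApcMinL, were the main source of Ccl25, Ccl28 and, as given above, Cx3cl1. Ccl25, the ligand of Ccr9 that brings lymphocytes to the small intestine, stood at 751 CPM (720 to 783) and 984 CPM (968 to 1000) in epithelial-like cells, with UMIs in 91.7% and 94.8% of them at median depths of 45055 and 41878.5. In plasma-like cells, Ccl25 UMIs were found in 1.05% and 5.08% of cells. Fibroblast-like cells had 9.01 and 15.2 CPM of Ccl25, which was not above free RNA by the main estimate. Ccl28, which binds Ccr10, was low, with 9.98 CPM (6.69 to 14.3) and 11.5 CPM (9.86 to 13.4) in epithelial-like cells. Since EpCAM-positive cells were sorted out, these epithelial-like cells are the ones that passed the sort.

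T cell- or ILC-like cells held Ccl5 and Xcl1. Ccl5, a T cell attractant made by cytotoxic lymphocytes, stood at 2345 CPM (2246 to 2448) in 117 ApcMin cells and 1022 CPM (951 to 1097) in 84 VApcMinL cells. Its UMIs were found in 45.3% and 39.3% of these cells and in 1.48% and 0.752% of plasma-like cells. The 10 cells with the most Ccl5 held 68.6% and 69.5% of the UMIs of the class, so few cells set its level. Xcl1, which draws cross-presenting dendritic cells through Xcr1, stood at 167 CPM (141 to 196) and 254 CPM (219 to 293), and at 0 in plasma-like cells.

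Myeloid- or mast-like cells were the main source of Ccl3, Ccl4, Ccl6, Ccl9, Ccl12, Ccl17 and Ccl24 in both libraries. Ccl4 stood at 1381 CPM (1346 to 1417) and 813 CPM (778 to 849) and Ccl3 at 514 CPM (492 to 536) and 288 CPM (268 to 310). Both are made by activated macrophages. Ccl24, an eosinophil chemokine like Ccl11, stood at 401 CPM (382 to 421) and 552 CPM (523 to 582). Ccl6 had 307 and 241 CPM, Ccl9 92.0 and 99.9 CPM and Ccl12 149 and 212 CPM. Ccl8 had 130 CPM in both libraries, against 5.77 and 8.12 CPM in fibroblast-like cells. Ccl17, a ligand of Ccr4, had 44.1 and 47.3 CPM, 97.3% and 100% of it in 10 cells.

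The class was divided into 7 sub-clusters, also without the chemokine genes, and the chemokines were spread unevenly over them. The 173 cells of sub-cluster 0, led by F13a1, Cd163 and Mrc1, known from resident macrophages, held 51.9% of the Cxcl2, 85.7% of the Ccl7, 83.7% of the Ccl12, 74.2% of the Ccl8 and 68.7% of the Ccl2 UMIs of the class. The 114 cells of sub-cluster 1, led by Gbp2b and Timd4, held 60.3% of Cxcl9, at 516 CPM (477 to 557). The 80 cells of sub-cluster 2, led by the mast cell proteases Mcpt2 and Mcpt1 but also by S100a8 and S100a9 of neutrophils, held 97.3% of Cxcl3 and 55.6% of Ccl24. Sub-cluster 4, 47 cells led by Siglech and Ccr9, which are known from plasmacytoid dendritic cells, held 66.8% of Ccl17. The 53 cells of sub-cluster 3, led by Dcn and Mgp and with 73.6% among the highest doublet scores, held 95.5% of Cxcl13, 90.2% of Ccl11 and 85.9% of Cxcl12 of the class.

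**Figure D3:**
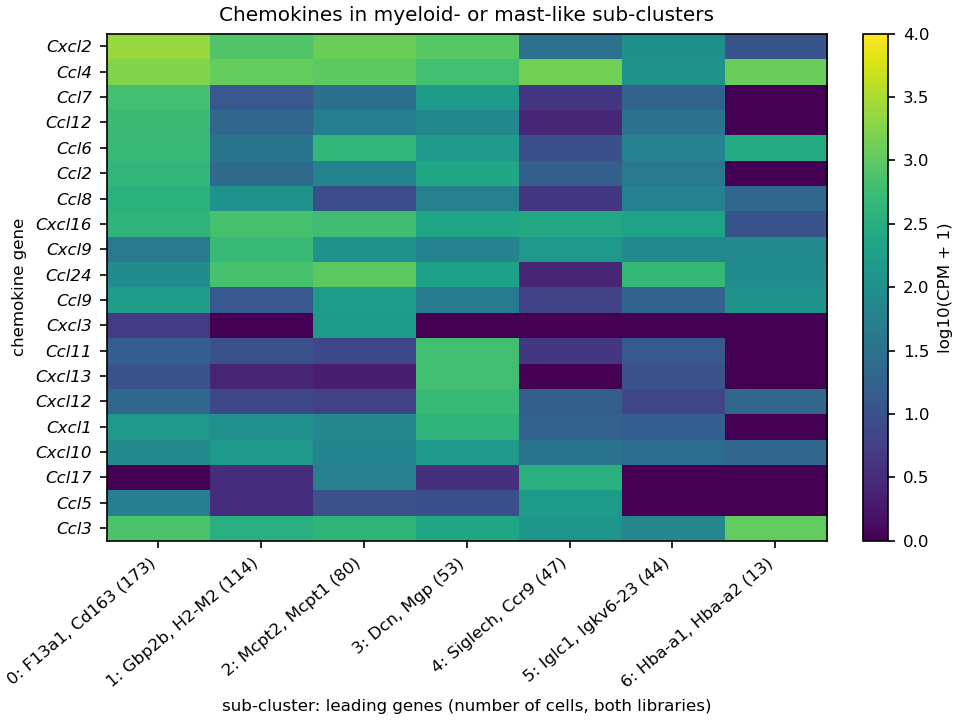
Level of chemokines, as log10(CPM + 1) (color), in the 7 sub-clusters of myeloid- or mast-like cells, both libraries together (columns, leading genes and number of cells). Ccl7, Ccl8 and Ccl12 are bright in sub-cluster 0, Cxcl9 in sub-cluster 1 and Cxcl13, Ccl11 and Cxcl12 in sub-cluster 3, which is led by fibroblast genes.

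The 6 genes with fewer than 200 UMIs but at least 1 were Ccl22 with 196, Ccl20 with 158, Ccl1 with 34, Cxcl17 with 29, Cxcl15 with 16 and Ccl21c with 1. Ccl22 lay mainly in myeloid- or mast-like cells, with 78 and 85 UMIs. Ccl20 lay mainly in epithelial-like cells, with 18 and 112 UMIs, and 31 of the 34 Ccl1 UMIs lay in myeloid- or mast-like ApcMin cells. Ccl26, Ccl27b and Ccl21b were among the features at 0 UMIs, together with copies of Ccl19, Ccl21a, Ccl21c and Ccl27 on unplaced scaffolds.

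Chemokine genes of fibroblast-like cells were also examined for sharing the same cells, with each cell thinned to 3000 UMIs and a gene counted at 3 UMIs or more. Ccl7 was counted in 31.3% and 21.9% of the cells with Ccl2 and in 4.58% and 3.24% of the cells without it. Ccl2 was counted in 22.8% and 33.1% of the cells with Cxcl1 and in 4.34% and 5.41% of the others. These inflammatory genes thus lay in the same fibroblast-like cells more often than elsewhere in both libraries. Cxcl12 was counted in 65.3% and 73.5% of the cells with Cxcl13 and 21.1% and 29.7% of the others, whereas Cxcl1 was counted in 7.65% and 8.80% of the cells with Cxcl13 and 32.8% and 26.2% of the others. The Cxcl12 contrast was smaller within clusters 2 and 3. Its shares were 60.9% and 65.6% with Cxcl13 and 35.3% and 38.4% without in cluster 2. They were 77.5% and 81.3% with Cxcl13 and 65.6% in either library without in cluster 3. Within cluster 2, where Cxcl13 was high in both libraries, Cxcl1 was counted in 8.70% and 7.89% of cells with Cxcl13 and 12.9% and 14.6% of those without. In cluster 3 the shares were 2.50% and 8.80% with and 2.82% and 10.4% without, and in cluster 1 of VApcMinL 9 of 11 cells with Cxcl13 had Cxcl1, or 81.8%, against 50.8% of the others. The cells of a library are not replicates, so these shares are a description.

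Of 23 chemokine receptors and atypical receptors, 16 had at least 200 UMIs, and the 7 with fewer were Cxcr2 (148), Cxcr3 (107), Xcr1 (73), Ccr4 (43), Ccr3 (5), Ccr8 (5) and Cxcr1 (1). The signaling receptors with at least 200 UMIs were highest in leukocyte-like cells. Ccr7, Cxcr4, Cxcr5 and Ccr6 were highest in B-like cells, at 625 and 516, 656 and 570, 124 and 94.9, and 95.8 and 78.0 CPM. Ccr9 and Cxcr6, the receptors of Ccl25 and Cxcl16, were highest in T cell- or ILC-like cells at 363 and 245, and 273 and 215 CPM, as was Ccr2 at 111 and 77.6 CPM. Ccr1 and Cx3cr1 were highest in myeloid- or mast-like cells, at 324 and 321, and 468 and 293 CPM, and Ccrl2, a non-signaling receptor, at 235 and 243 CPM. Fibroblast-like cells had 36.2 and 26.0 CPM of Cx3cr1. Ccr10, the receptor of Ccl28, was highest in plasma-like cells, at 156 and 151 CPM.

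The atypical receptors were examined in the same cells. Ackr4, which removes Ccl19, Ccl21 and Ccl25, stood at 225 and 214 CPM in fibroblast-like cells, and Ackr3, which removes Cxcl12, at 274 and 348 CPM in lymphatic endothelial-like cells and 183 and 99.2 CPM in fibroblast-like cells. Within fibroblast-like cells Ackr4 was highest in cluster 2 (580 and 587 CPM) and Ackr3 in cluster 10 (614 and 488 CPM), where Cxcl12 was lowest. Ackr2, which removes inflammatory CC chemokines, was highest in lymphatic endothelial-like cells, at 129 and 143 CPM, and Ackr1 in fibroblast-like cluster 10, at 62.6 and 45.9 CPM.

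Between the libraries, the genotype comparison asked whether chemokine levels in lamina propria cells differed when Lef1 was deleted in the epithelium. A gene was counted as apart where its CPM differed at least 2-fold and it had at least 50 UMIs over both libraries, in classes with at least 50 cells in each. In fibroblast-like cells 23 chemokines had enough UMIs. Of these, 5 were at least 2-fold higher in VApcMinL and 0 at least 2-fold lower, beside 6.78% of all 14181 genes apart, 5.47% higher and 1.3% lower. The median log2 difference, VApcMinL minus ApcMin, was 0.62 over the 23 chemokines and 0.03 over all genes. The 5 were Cxcl13, Cxcl5, Cxcl3, Ccl21a and Ccl24, of which Ccl21a and Ccl24 were not above free RNA in either library by the main estimate.

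Cxcl13 was 5.83 times (5.69 to 5.98) as high in fibroblast-like VApcMinL cells as in ApcMin cells, and Cxcl5 4.10 times (3.68 to 4.57). Both ratios stayed past 2-fold under every alternative of the processing that was run. Cxcl3 was 3.63 times (2.40 to 5.61) as high on 31 and 100 UMIs, which lay in 5 and 9 cells. The other fibroblast chemokines were less than 2-fold apart: Cxcl14 1.77, Cxcl16 1.70, Cxcl12 1.54, Ccl11 1.48 and Ccl2 1.199 times as high in VApcMinL, with Cxcl1 at 0.726, Cxcl9 at 0.646, Ccl7 at 0.832 and Cxcl10 at 0.842. The libraries also differed in which fibroblast-like clusters they held, with 395 and 837 cells in cluster 3 and 97 and 293 in cluster 11. When the VApcMinL clusters were weighted as in ApcMin, a calculation chosen after seeing the data, Cxcl13 stood at 610 CPM with a ratio of 3.96 and Cxcl5 had a ratio of 2.59. Cxcl12 and Cxcl16 then had ratios of 1.18 and 1.06, and Cxcl9, at 0.386, passed 2-fold lower. Barx1, a gene of stomach and gut mesenchyme, stood at 38.4 CPM in fibroblast-like ApcMin cells and 2.103 CPM in VApcMinL ones, and immediate-early genes, which respond to dissociation, at 16608 and 17789 CPM. The part of either in these differences was not tested.

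**Figure D4:**
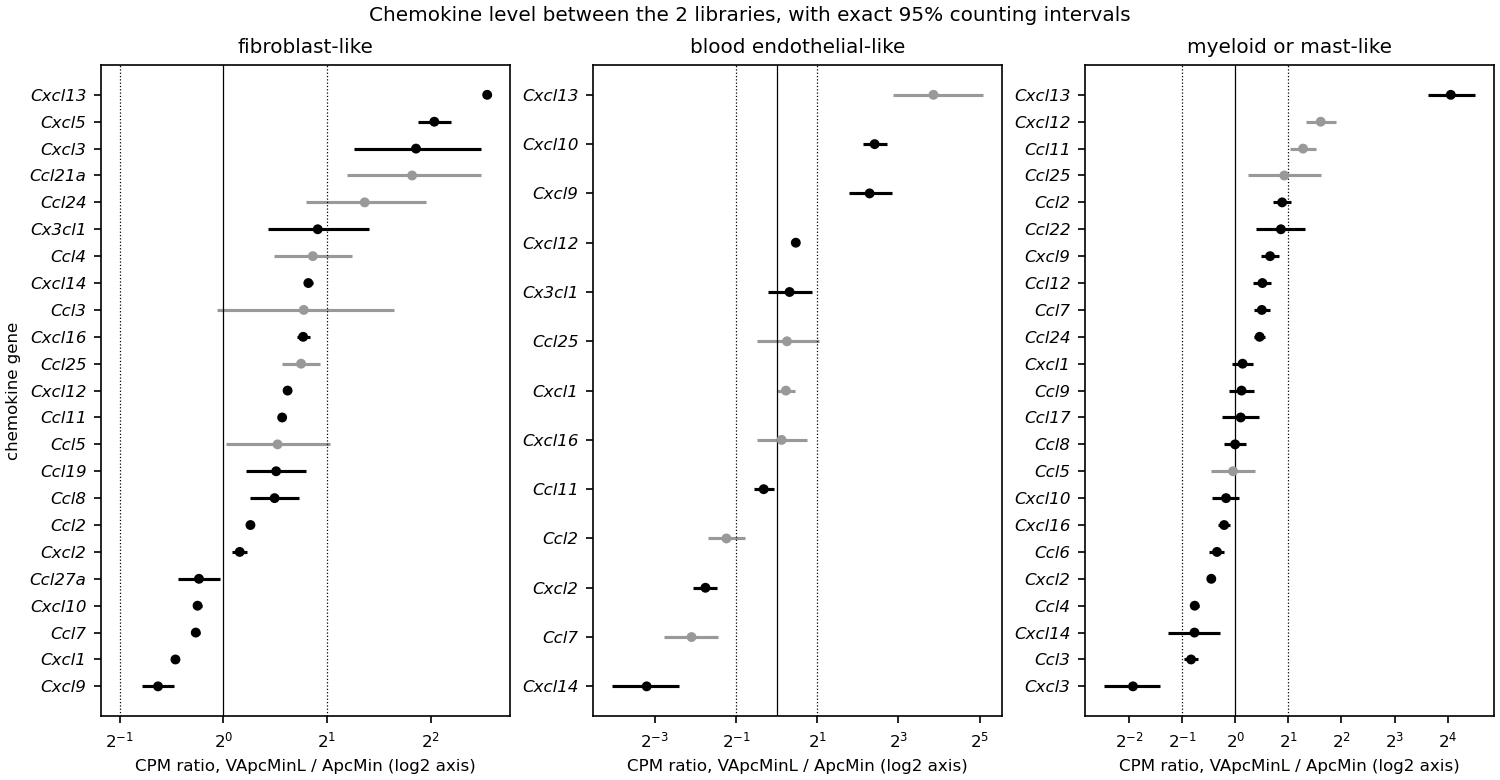
Ratio of CPM, VApcMinL over ApcMin (log2 axis), of each chemokine with at least 50 UMIs in fibroblast-like, blood endothelial-like and myeloid- or mast-like cells. Points are ratios, bars exact 95% counting intervals, dotted lines mark 2-fold, and black marks genes above free RNA in at least 1 library: Cxcl13 lies highest in all 3 panels, at 5.83 in fibroblast-like cells.

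Within the fibroblast-like clusters, Cxcl13 was apart in 6 clusters, Cxcl9 in 5 and Cxcl5 in 4. Differences that changed sign under an alternative are given below as log2, VApcMinL minus ApcMin. In cluster 3, 6 of 15 chemokines were apart (3.84% of all genes), all higher in VApcMinL: Cxcl13 9.52 times (9.01 to 10.1), Cxcl5 3.50 times, Cxcl9 3.11 times, Ccl2 2.39 times, Cxcl1 2.34 times, and Cxcl2, at 3.30 and 94.9 CPM. In cluster 2, 3 of 16 were apart (2.25% of all genes), with Cxcl13 2.74 times (2.66 to 2.83) and Cxcl5 3.25 times as high and Cxcl9 lower at 0.443. Cxcl5 of cluster 2 was -0.14 after thinning, and Cxcl9, which was not above free RNA, was 1.18 after its subtraction and 0.092 without the 10 cells with the most UMIs. In cluster 11, where Cxcl13 was level at 412 and 414 CPM, 5 of 14 were higher (3.43% of all genes): Cxcl5 3.45 times, Cxcl1 2.33 times, Cxcl10 2.18 times, Cxcl2 with 2 and 304 UMIs, and Ccl4 with 1 and 109 UMIs, 108 of which lay in 1 cell. Without the 10 cells with the most UMIs, Cxcl2 of cluster 11 was -0.78. ApcMin then had no UMIs left and was set at 3 counts, so this was not a reversal. Cxcl13 thus differed between libraries in clusters 2 and 3 and not by 2-fold in cluster 11.

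In cluster 1, 6 of 18 were higher in VApcMinL (4.04% of all genes): Cxcl14 5.14 times (4.63 to 5.71), Cxcl13 3.85 times, Ccl5 3.45 times, Cxcl5 2.44 times, Cxcl3 2.34 times and Ccl19 2.09 times. The Ccl5 of this cluster was not above free RNA by the main estimate. In cluster 0, 3 of 16 were apart (2.83% of all genes), with Cxcl13 at 1.78 and 14.3 CPM, Cxcl3 at 0 and 54 UMIs and Cxcl9 lower at 0.30. The Cxcl13 of cluster 0 was -0.16 after free RNA subtraction. In cluster 10, 3 of 12 were apart (2.38% of all genes), with Ccl2 2.03 times as high and Cxcl13 and Cxcl9 lower at 0.422 and 0.158. Cxcl9 was 1.28 without the 10 cells with the most UMIs. VApcMinL then had no Cxcl9 UMIs left and was set at 3 counts, so this was not a reversal. In cluster 13, 3 of 12 were apart (4.77% of all genes), with Ccl2 3.53 times and Cxcl13 4.78 times as high and Cxcl9 lower at 0.0653. Leaving out the highest Scrublet (doublet) scores turned Cxcl9 of cluster 13 to 3.14, on at most 6 VApcMinL UMIs, and Cxcl13 to -0.67. Cxcl13 of this cluster was not above free RNA and was -2.34 after its subtraction. Cxcl9 was lower in VApcMinL in clusters 0, 2, 10 and 13, and in each of these at least 86.2% of its ApcMin UMIs lay in 10 cells.

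The higher Cxcl13 of VApcMinL lay in cells with many UMIs of it. In fibroblast-like ApcMin cells, 1 of 3352 had at least 100 Cxcl13 UMIs and the highest had 176. In VApcMinL, 79 of 3674 had at least 100, with a highest of 456, and these 79 cells held 32.2% of the Cxcl13 UMIs of fibroblast-like cells. Of the 79, 51 lay in cluster 3, 27 in cluster 2 and 1 in cluster 18, where this cell held 82.3% of the UMIs of its cluster. Cells with 10 to 99 UMIs were 6.26% in ApcMin and 18.3% in VApcMinL, and cells with 1 to 9 were 14.98% and 18.3%. The library difference of Cxcl13 was thus seen both in cells with 10 to 99 UMIs and in those with 100 or more, at a lower median depth per cell in VApcMinL.

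**Figure D5:**
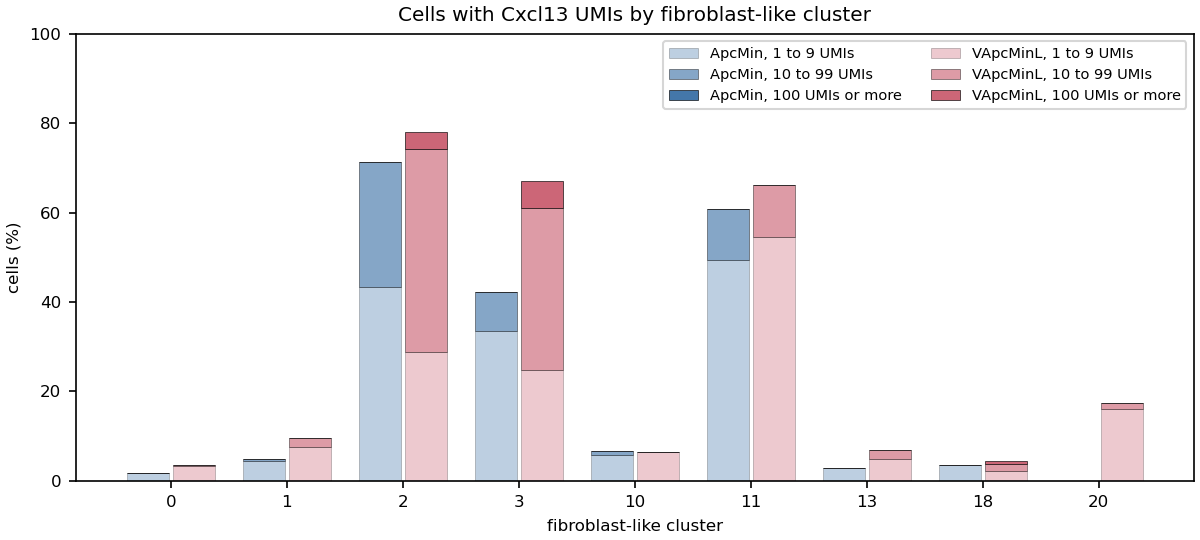
Share of cells (%) with 1 to 9, 10 to 99 and 100 or more Cxcl13 UMIs in each fibroblast-like cluster of the ApcMin and VApcMinL libraries. In cluster 3 the share with 10 to 99 UMIs is 8.86% in ApcMin and 36.1% in VApcMinL, and cells with 100 or more are 6.09% of VApcMinL cells.

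In blood endothelial-like cells, 7 of 13 chemokines were apart, beside 5.74% of all genes. Cxcl10 was 5.33 times (4.35 to 6.59) and Cxcl9 4.89 times (3.45 to 7.13) as high in VApcMinL, and both stayed past 2-fold under every alternative that was run. For Cxcl9, free RNA subtraction and leaving out the 10 cells with the most UMIs each left no ApcMin UMIs, so ApcMin was set at 3 counts. Such 10 cells were also a larger part of the 124 ApcMin than of the 485 VApcMinL cells. Cxcl10 UMIs were found in 20.2% of ApcMin and 25.6% of VApcMinL cells of the class, or 14.5% and 23.7% with each cell thinned to 3000 UMIs. Cxcl13 stood at 7.69 and 112 CPM and was not above free RNA by the main estimate, and Cxcl2 (0.296), Ccl2 (0.424), Ccl7 (0.233) and Cxcl14 (0.109) were lower in VApcMinL. Of the lower genes, Ccl2 and Ccl7 were also not above free RNA in either library by the main estimate. When the highest Scrublet scores were left out, the log2 difference turned to 2.27 for Ccl2, on 62 UMIs, and 0.97 for Ccl7, on 18 UMIs. Cxcl2 (-0.33, on 237 UMIs) and Cxcl14 (-0.70, on 7 UMIs) were no longer 2-fold apart. Ccl7 and Cxcl14 were then short of the 50 UMIs asked for. Without the 10 cells with the most UMIs, Cxcl2 was 2.80 and Ccl2 1.35, with ApcMin left without UMIs and set at 3 counts. The 10 cells with the most UMIs held all of the ApcMin UMIs of Cxcl2, Ccl2, Ccl7 and Cxcl14 in this class. In the class, 16.1% of ApcMin and 5.98% of VApcMinL cells were among the highest doublet scores, and Dcn, a fibroblast gene, stood at 3352 and 1051 CPM. The part of fibroblast RNA in these lower values was not tested.

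In myeloid- or mast-like cells, 4 of 23 chemokines were apart, beside 5.25% of all genes. Cxcl3 was lower in VApcMinL, at 54.9 and 14.4 CPM, a ratio of 0.263 (0.180 to 0.375), and Mcpt1, a protease of mucosal mast cells, stood at 7501 CPM in ApcMin and 0 in VApcMinL. Cxcl13 (11.6 and 193 CPM), Cxcl12 (40.5 and 124 CPM) and Ccl11 (54.9 and 133 CPM) were higher. Of them, Cxcl12 and Ccl11 were not above free RNA in either library by the main estimate. Most UMIs of these 3 genes lay in the sub-cluster led by fibroblast genes, and the class was recomputed without the sub-clusters led by fibroblast, immunoglobulin and hemoglobin genes, a choice made after seeing the data. Cxcl12 then had a ratio of 1.18 and Cxcl13, on 21 UMIs, no longer had enough, while Ccl11, on 51 UMIs, and Cxcl3 stayed past 2-fold. Ccl3 and Ccl4 stood at 0.561 and 0.589 of their ApcMin levels.

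In T cell- or ILC-like cells, 6 of 10 were apart, beside 7.67% of all genes. Ccl5 was lower in VApcMinL, with a ratio of 0.436 (0.401 to 0.474), as was Cxcl2 at 0.335. Cxcl10 (3.999 times), Cxcl12 (7.50 times), Ccl2 (2.05 times) and Cxcl13, with 0 and 123 UMIs, were higher. Leaving out the highest Scrublet scores gave log2 differences of -0.14 for Cxcl12, 0.57 for Cxcl10 and -0.90 for Ccl5. For Cxcl13 it gave -0.73, but ApcMin, at 0 UMIs, was set at 3 counts, so this was not a reversal. After free RNA subtraction Cxcl12 was -2.69 and Ccl2 -0.96. Of these cells 10.3% in ApcMin and 23.8% in VApcMinL were among the highest doublet scores, and Pdgfra stood at 26.7 and 116 CPM. In B-like cells 2 of 8 were apart (2.92% of all genes), Cxcl12 and Ccl11, and in plasma-like cells 4 of 6 (7.24% of all genes), Cxcl13, Cxcl12, Ccl2 and Ccl11, all higher in VApcMinL. By the main estimate, Cxcl12 and Ccl11 in B-like cells and Cxcl12, Ccl2 and Ccl11 in plasma-like cells were not above free RNA. In erythroid-like cells 2 of 3 were apart, beside 70.2% of all genes, so Cxcl12 and Ccl11 did not stand out there. Cxcl12 was not above free RNA there, and Ccl11 was -0.22 after free RNA subtraction. These are fibroblast chemokines, and 134 of the 157 plasma Cxcl13 UMIs of VApcMinL lay in 1 cell. The part of doublets and free RNA was not tested.

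Of the receptors, 13 had enough UMIs in fibroblast-like cells, where 6.78% of all genes were apart. None was at least 2-fold higher in VApcMinL, Ackr2 was lower at 0.436 (0.315 to 0.595), and Ackr1 stood at 0.589. In blood endothelial-like cells 1 of 5 was apart (5.74% of all genes), Ackr4 at 0.376, and in T cell- or ILC-like cells 1 of 9 (7.67% of all genes), Cxcr4 at 2.07. In B-like cells (2.92% of all genes) 0 of 5 were apart, and in plasma-like cells (7.24% of all genes) 0 of 4.

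In myeloid- or mast-like cells 4 of 11 receptors were apart, beside 5.25% of all genes. Ccr2 (0.441) and Ackr3 (0.382) were lower in VApcMinL, and Ccr10 (9.16) and Ackr4 (3.03) were higher. Ccr10 was highest in plasma-like and Ackr4 in fibroblast-like cells. The sub-cluster led by immunoglobulin genes held 3 ApcMin and 41 VApcMinL cells and the one led by Dcn 21 and 32, and their part in these values was not tested. Within the fibroblast-like clusters, Cx3cr1 was lower in cluster 1 (0.407; 4.04% of all genes apart) and higher in clusters 2 (2.67; 2.25%), 10 (2.27; 2.38%) and 11 (3.68; 3.43%), and Ackr3 was lower in cluster 0 (0.470; 2.83%).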

How the data were processed

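Each genotype had 1 droplet-based 3′ single-cell RNA library. The deposited matrices hold UMI counts per gene and barcode, unfiltered, that the authors made with Cell Ranger on mm10. The submitters' processing notes give Cell Ranger 2.1.1 and Seurat 3.1.1, whereas the matrix header names software 3.1.0.

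Barcodes with at least 3000 UMIs and at most 20% mitochondrial UMIs were kept. Doublets were kept. Libraries were integrated by canonical correlation anchors (2000 genes, 30 dimensions) in Seurat 5.3.0 (R 4.3.3, Matrix 1.6.5) without the chemokine genes, and clustered on 20 components with 20 neighbours at resolution 0.8, where the study used 0.2. Classes were named "-like" from marker lists, and details of naming were settled after the clusters were seen. Myeloid- or mast-like cells were sub-clustered at resolution 0.5 (15 components, 1500 genes). Python 3.11.15 with numpy 2.4.6, scipy 1.17.1, pandas 2.3.3, scanpy 1.11.5 (Scrublet) and matplotlib 3.10.9 was used for the rest.

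Within each library the UMIs of a class were added up and given as CPM of the class total, with exact Poisson intervals for levels, exact binomial intervals for shares and conditional binomial intervals for ratios, all at 95%. Since PCR copies were collapsed by UMI, intervals cover counting error of molecules only. Free RNA was taken from barcodes of rank 45000 to 90000. A gene was counted as apart at 2-fold or more with at least 50 UMIs over both libraries, and a library at 0 was set at 3 counts. The ratios and intervals were tested on simulated data. Chemokines with at least 200 UMIs, those apart between libraries, and receptors from a fixed list were named. The values of 1 listed receptor are not reported here. The chemokines and all gene lists were chosen with earlier results of these data known. Alternatives were other cell filters, Scrublet scores, clusterings, thinning, free RNA subtraction and leaving out the cells with the most UMIs.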

Additional observations from a re-analysis of the deposited data

Results flagged for a closer look

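For 7 chemokines the CPM ratio of VApcMinL over ApcMin was past 2-fold in opposite directions in different cells. None of these differences between cells was tested, since each genotype had 1 library. Cxcl9 was 4.89 times as high in blood endothelial-like cells and 0.0653 times in fibroblast-like cluster 13, there on 133 and 6 UMIs. Without the highest Scrublet scores the latter turned to a log2 difference of 3.14, but on at most 6 VApcMinL UMIs. Cxcl3 was 3.63 times as high in fibroblast-like cells, on 31 and 100 UMIs, and 0.263 times in myeloid- or mast-like cells, on 228 and 36 UMIs. Few cells held these UMIs, and after thinning the fibroblast-like ones were 16, short of the 50 asked for. Cxcl2 was 57.9 times as high in fibroblast-like cluster 11, from 2 ApcMin UMIs, and 0.296 times in blood endothelial-like cells. Without the 10 cells with the most UMIs, ApcMin had no UMIs left in either and was set at 3 counts, giving -0.78 and 2.80 on the log2 scale. VApcMinL kept UMIs in both, so only the endothelial difference turned. Cxcl14 was 5.14 times as high in fibroblast-like cluster 1 and 0.109 times in blood endothelial-like cells. In the latter it was no longer past 2-fold (log2 -0.70, on 7 UMIs) without the highest Scrublet scores. Ccl2 was 3.53 times as high in fibroblast-like cluster 13 and 0.424 times in blood endothelial-like cells, there not above free RNA by the main estimate. In the latter the log2 difference turned to 2.27 without the highest Scrublet scores. It was 1.35 without the 10 cells with the most UMIs, with ApcMin left without UMIs and set at 3 counts. Ccl5 was 3.45 times as high in fibroblast-like cluster 1 and 0.436 times in T cell- or ILC-like cells, where it was -0.90 on the log2 scale, short of 2-fold, without the highest Scrublet scores. Cxcl13 was 27.0 times as high in plasma-like cells, where 1 VApcMinL cell held 134 of 157 UMIs, and 0.422 times in fibroblast-like cluster 10.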

How the results depend on the processing

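No paired analysis was possible because there was only 1 library of either genotype, and for the same reason no replicate could be left out. The number of fibroblast-like chemokines apart, 5, was 2 with each cell thinned to 3000 UMIs. Over all classes, 30 gene and class pairs were apart, against 49 with the class of each cell from its own markers, 16 after thinning and 15 without the 10 cells per library with the most UMIs of the gene. The fibroblast-like share of chemokine UMIs, 81.9% and 77.2%, was 83.5% and 79.8% with at least 6000 UMIs, 82.5% and 80.9% with at most 10% mitochondrial UMIs, 84.1% and 79.98% without the highest Scrublet scores, 67.2% and 60.2% with classes from own markers, and in VApcMinL 77.6% at resolution 0.2. Of the 30 pairs, 5 stayed past 2-fold under every alternative with a value, and of 29 pairs in fibroblast-like clusters, 10 did. Values could be had for 25 of the 30 pairs without the cells with the most UMIs and for 17 after free RNA subtraction. In these runs a library left without UMIs was set at 3 counts, as ApcMin was for Cxcl9 in blood endothelial-like cells.

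Some log2 differences, VApcMinL minus ApcMin, changed sign, and the cause was not tested. Without the highest Scrublet scores, Ccl2 was 2.27 and Ccl7, on 18 UMIs, 0.97 in blood endothelial-like cells. Cxcl12 was then -0.14 in T cell- or ILC-like cells. Cxcl13 there was -0.73, but with ApcMin at 0 UMIs and set at 3 counts, which was not a reversal. In cluster 13 Cxcl13 was -0.67 and Cxcl9, on at most 6 VApcMinL UMIs, 3.14. After free RNA subtraction, Cxcl12 was -2.69 and Ccl2 -0.96 in T cell- or ILC-like cells, Ccl11 -0.22 in erythroid-like cells, Cxcl13 -0.16 in cluster 0 and -2.34 in cluster 13, and Cxcl9 1.18 in cluster 2. Without the 10 cells with the most UMIs, Cxcl2 was 2.80 and Ccl2 1.35 in blood endothelial-like cells, with ApcMin set at 3 counts. Cxcl9 was then 0.092 in cluster 2. Cxcl9 was 1.28 in cluster 10 and Cxcl2 -0.78 in cluster 11, but these signs came from a library set at 3 counts and were not reversals. After thinning, Cxcl5 was -0.14 in cluster 2.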
